A study of Vitis vinifera with 4 samples.

Results

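The regions described here are the MYBPA1 binding events on grapevine chromosomes chr09 and chr11, taken as every row of the deposited event list that carries one of these chromosome names. They number 2574 of the 30318 events in the list (8.49%), with 1128 on chr09 and 1446 on chr11. The remaining numbered chromosomes, 17 in all, hold 27262 events, and together chr01 to chr19 hold 29836. The rule uses chromosome names alone and no measured value, although it was written with earlier results of these data known.

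MYBPA1 is a MYB transcription factor of grapevine (Vitis vinifera) that is known to activate genes of proanthocyanidin synthesis, the branch of flavonoid metabolism that makes condensed tannins. MYB proteins of this type hold DNA through paired helix-turn-helix repeats that read short AC-rich elements. Grapevine descends from a hexaploid ancestor and has kept much of its ancestral gene order, so that large blocks recur on several chromosomes. Chr09 and chr11 share such ancestry, and parts of chr04 are commonly placed in the same set. The list carries no genes, so this ancestry could not be examined in it.

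The assay was DAP-seq, in which an affinity-tagged transcription factor captures fragments of purified genomic DNA that are then sequenced. The DNA came from frozen young leaves of cultivar Pinot Noir, clone PN-94, in both groups. The groups were MYBPA1, a grapevine protein with a HALO tag, with 2 libraries, and pIX-HALO, the tag construct, with 2 libraries, both expressed in rabbit reticulocyte lysate. DAP-seq reads affinity for naked DNA, without nucleosomes or partner proteins, so an event is not occupancy in a leaf cell. The list gives 1 set of values for MYBPA1 and none per library. No replicate error could therefore be attached to any value, and all intervals and p-values below describe the spread of events along the genome, not between libraries.

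Each event is 201 bp wide and carries a signal value and a −log10 p from the authors' peak caller, as deposited. The signal has no stated scaling, has its lowest values at 22 and has a median of 49.1 over the list. Positions are printed 1-based in the build of the list, which is not named in the sources used here. No sequence or gene model of that build was used, so events are identified by position and not by gene.

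The first comparison was of event density, which asks how often MYBPA1 held DNA per length of chromosome. Chr09 was event-poor and chr11 was not. Chr09 had 49.1 events per Mb (exact 95% Poisson interval 46.3 to 52.0) over a span of 23.0 Mb from its first to its last event. Chr11 had 72.1 per Mb (68.4 to 75.9) over 20.1 Mb. Chr09 thus had the lowest density of the 19 numbered chromosomes and chr11 the 6th highest, where the other 17 ran from 52.0 on chr16 to 84.2 on chr08 with a median of 65.4. Chr04 had 74.5 events per Mb, close to chr11 and far from chr09. The Poisson intervals cover counting error only and treat neighbouring events as independent.

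**Figure D1:**
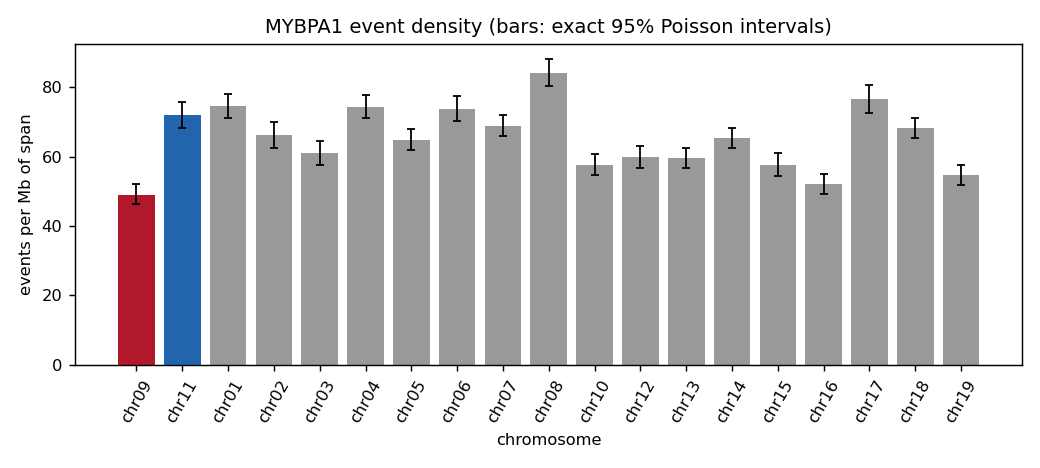
Events per Mb of span (bar height) on each numbered chromosome, with exact 95% Poisson intervals as error bars. Chr09 (red) at 49.1 is the lowest bar, and chr11 (blue) at 72.1 stands above the median of the other 17, 65.4.

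Density was then tested on counts in windows of 1 Mb, which vary far more than counting error. A quasi-Poisson fit with chromosome as the factor, over 449 windows, had a dispersion of 10.4, where 1 would be counting error alone. The windows averaged 48.8 events on chr09 and 72.0 on chr11. Chr09 had 0.677 times the window density of chr11 (95% interval 0.524 to 0.875, n = 22 and 20 windows, adjusted p = 0.032 over all pairs of numbered chromosomes). Among all such pairs, 11.7% passed at an adjusted p under 0.05, so a difference of this kind is uncommon but not confined to chr09 and chr11. With windows of 2 Mb the ratio was again 0.677, but it no longer passed (adjusted p = 0.193, n = 11 and 10 windows), and over the alternatives the adjusted p ran from 0.0025 to 0.193. The call was also lost among the stronger 50% of events and among those with a −log10 q of at least 5, with ratios of 0.665 and 0.672.

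Against the other 18 chromosomes, chr09 had 0.746 times their mean density (95% interval 0.612 to 0.909, n = 22 against 427 windows, adjusted p = 0.036 over 19 chromosomes). Of the 19 chromosomes, 10.5% passed this test, chr09 by being low and chr08 by being high. Chr11 did not pass, with a ratio of 1.13 (0.948 to 1.34, n = 20 windows, adjusted p = 0.334). With windows of 2 Mb the ratio of chr09 was 0.749 and the call was lost (n = 11 windows on chr09, adjusted p = 0.224, the highest of its alternatives). Without the middle 33.3% of each span it was 0.771 (n = 15 windows on chr09, adjusted p = 0.1). In 7 of its 18 pairs chr09 was lower at an adjusted p under 0.05, with ratios of 0.580 to 0.714. These were the pairs with chr01, chr04, chr06, chr08, chr11, chr17 and chr18. The other 11 pairs had ratios of 0.712 to 0.956 and did not pass. For chr11 the pair with chr09 was the only one of 18 to pass. Chr09 had 0.659 times the density of chr04 (0.516 to 0.842, n = 22 and 24 windows, adjusted p = 0.0242), whereas chr11 had 0.973 times (0.777 to 1.22, adjusted p = 0.867).

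The deficit of chr09 ran along most of its length. Each span was divided into 10 equal bins from the low-coordinate end. In 9 of the 10 bins chr09 had fewer events per Mb than chr11. The first bin held 76.6 events per Mb on chr09, against 103.2 on chr11. The density was lower on both chromosomes towards the middle, with 19.2 from 60 to 70% of the span of chr09 and 37.4 from 70 to 80% of that of chr11. The last bin held 50.1 on chr09 and 84.8 on chr11. The exception was the bin from 70 to 80%, with 46.6 on chr09.

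**Figure D2:**
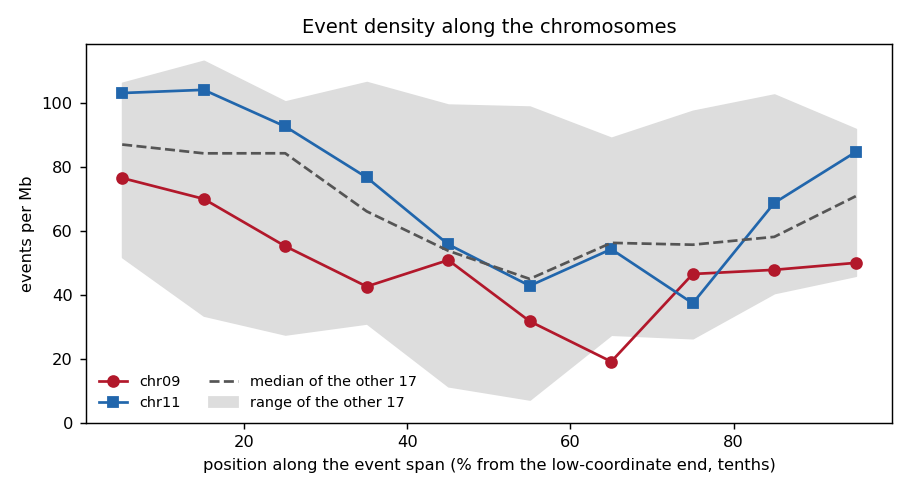
Events per Mb (vertical axis) in 10 equal bins of the event span (horizontal axis, percent from the low-coordinate end) for chr09 (red circles), chr11 (blue squares), the median of the other 17 chromosomes (dashed) and their range (grey). Chr09 lies below chr11 except from 70 to 80%, and its value of 19.2 from 60 to 70% is below the range of the other 17.

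With the span cut into 3 equal parts, chr09 had 69.5, 33.4 and 44.4 events per Mb from the low-coordinate end to the high one. Chr11 had 100.2, 56.7 and 59.4 in the same order. The low-coordinate part of chr11 was denser than that of every other numbered chromosome, while the high-coordinate part of chr09 was the sparsest of its kind. The ratio of chr09 to chr11 was 0.693 in the low-coordinate part, 0.590 in the middle and 0.748 in the high-coordinate part, so the lower density of chr09 was not restricted to its interior. Over the 10 bins the densities of chr09 and chr11 had a Pearson r of 0.758 read in the same direction and 0.0569 with chr11 turned round. The other pairs of chromosomes had a median r of 0.379 in the same direction. Both chromosomes were densest in the low-coordinate part, and their profiles were little alike with chr11 turned round. In the median of the other numbered chromosomes, too, the first bin (87.1 events per Mb) was denser than the last (70.9). The spread of r among the other pairs is not given here, so 0.758 cannot be ranked against them. These correlations are descriptions, and why the profiles are alike was not tested.

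At the scale of single megabases, the 22 windows of chr09 held 8 to 85 events, with a median of 51.5 and quartiles of 25.2 and 71.5. The 20 windows of chr11 held 25 to 124, with a median of 73 and quartiles of 49.5 and 93.2. The richest window of chr09 was poorer than the richest window of every other numbered chromosome, while that of chr11 was the richest of all under this placement of windows. On chr09 no window reached 90 events and 4 held at most 20. On chr11 there were 7 windows of at least 90 events and none of at most 20.

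The 3 richest windows of chr09 were chr09:2015541-3015540 with 85 events, chr09:18015541-19015540 with 77 and chr09:15541-1015540 with 76. They lay outside the middle of the span, 2 towards the low-coordinate end and 1 towards the high one. On chr11 the richest were chr11:1046242-2046241 with 124 events, chr11:3046242-4046241 with 112 and chr11:6046242-7046241 with 103, all towards the low-coordinate end. The poorest windows of chr09 were chr09:15015541-16015540 with 8 events, chr09:11015541-12015540 with 9 and chr09:14015541-15015540 with 10. Those of chr11 were chr11:14046242-15046241 with 25, chr11:11046242-12046241 with 36 and chr11:9046242-10046241 with 38. Between poor windows, chr09 also had a rich one, chr09:13015541-14015540, with 73 events, a window singled out after its value was seen.

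Long stretches without any event also set chr09 apart from chr11. On chr09, 12 distances between neighbouring event centres exceeded 200 kb (1.06% of 1127 gaps, 95% Wilson interval 0.610 to 1.85%). On chr11 there were 2 (0.138% of 1445, 0.0380 to 0.503%), and the other 17 chromosomes together had 105 (0.385% of 27245, 0.318 to 0.466%). The interval of chr09 lies above those of chr11 and of the other 17 together, but the pooled interval does not measure the spread among chromosomes. Taken singly, the 17 ran from 0.0527% on chr08 to 1.06% on chr16, the same share as on chr09. Chr13 had 14 such gaps and chr16 had 13, more than chr09.

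The longest stretch on chr09 ran from 15191057 to 15986475, a distance of 795 kb. The next ran from 14311472 to 14993381 (682 kb) and from 7661412 to 8320605 (659 kb). On chr11 the 3 longest were 244 kb from 7155540 to 7399098, 218 kb from 11530761 to 11748686 and 168 kb from 8728015 to 8895964. The longest gap of chr11 was the shortest such maximum of the 19 chromosomes, and the longest of chr09 ranked 10th. Chr09 thus had many long gaps, none of them extreme for the list. An event at 11713312 stood alone between gaps of 589 and 223 kb.

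Gaps over 200 kb added up to 5.08 Mb on chr09, or 22.1% of its span, and to 0.461 Mb on chr11, or 2.30%. Gaps over 100 kb added up to 7.84 Mb, or 34.1%, on chr09, to 2.71 Mb, or 13.5%, on chr11 and to a median of 18.3% on the other 17. By this measure chr09 ranked highest of 19. Outside the gaps over 100 kb, chr09 had 74.5 events per Mb and chr11 had 83.3, a ratio of 0.894, against 0.681 over the whole spans. The other 17 had 73.3 to 90.3 events per Mb outside such gaps, so chr09 then lay within their range, with the 4th lowest value. With only the gaps over 200 kb removed, chr09 had 63.0 and chr11 73.8, a ratio of 0.854, and chr09 was 2nd lowest of 19. Removing the longest gaps raises the density of a gap-rich chromosome by construction, and the event list does not show what sequence a gap holds.

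**Figure D3:**
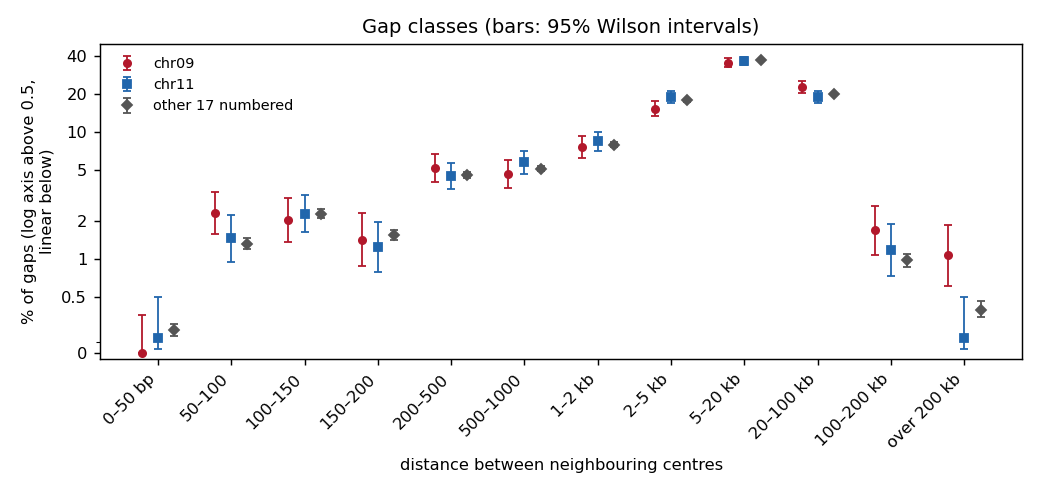
Share of distances between neighbouring event centres in each distance class (vertical axis in percent, logarithmic above 0.5 and linear below) for chr09 (red), chr11 (blue) and the other 17 numbered chromosomes together (grey), with 95% Wilson intervals. Chr09 stands above the other 17 at 50 to under 100 bp (2.31%) and over 200 kb (1.06%).

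The typical spacing differed less. The median distance between neighbouring centres was 8270 bp on chr09, the longest of the 19 chromosomes, and 6776 bp on chr11. The other 17 ran from 6240.5 to 7886 bp. The 25th percentiles, 2298.5 bp on chr09 and 2164 bp on chr11, were nearer to each other than the 75th percentiles, 20509.5 and 16809 bp. As a ratio of chr09 to chr11, the distance was 1.06 at the 25th percentile and 1.22 at both the median and the 75th percentile.

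The share of events with a close neighbour did not differ detectably between chr09 and chr11. On chr09, 335 events (29.7%, 95% Wilson interval 27.1 to 32.4%) had another event within 1000 bp. On chr11 there were 412 (28.5%, 26.2 to 30.9%), and the other 17 chromosomes ran from 25.4% on chr15 to 31.4% on chr08. In a quasi-binomial fit over windows the odds on chr09 were 1.07 times those on chr11 (0.841 to 1.35, n = 22 and 20 windows, adjusted p = 0.994 over all pairs). Chr09 had 1.09 times the mean odds of the other 18 chromosomes (0.908 to 1.31, n = 22 windows, adjusted p = 0.979) and chr11 had 1.02 times (0.868 to 1.20, adjusted p = 0.989). In this fit 0% of the 19 chromosomes and 0% of the pairs passed, and at an unadjusted p under 0.05 there were 1 and 5, none of them with chr09 or chr11. The chr09 to chr11 odds ratio could thus lie anywhere from 0.841 to 1.35 as far as this fit shows.

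A close-neighbour share that holds up on a sparse chromosome is large for its density. Events placed evenly at random at the density of chr09 would have a neighbour within 1000 bp in 9.35% of cases by formula, and at that of chr11 in 13.4%. The observed shares were 3.18 and 2.12 times these values, against 1.92 to 2.88 times on the other 17 chromosomes. Long empty stretches raise this ratio, because the events stand in the remaining sequence, so it restates the uneven spread of chr09 and is no separate measure.

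At the shortest distances the lists of gaps were small. Between 50 and under 100 bp lay 26 gaps of chr09 (2.31%, 1.58 to 3.36%), 21 of chr11 (1.45%, 0.952 to 2.21%) and 359 of the other 17 (1.32%, 1.19 to 1.46%). The chr09 share was the highest of 19 chromosomes, the next being 1.83% on chr01, and this class was singled out of 12 after the values were seen. Between 100 and under 150 bp there were 23 gaps on chr09 (2.04%) and 33 on chr11 (2.28%), with 2.28% on the other 17. Below 50 bp chr09 had 0 of 1127 gaps, a share with a 95% Wilson upper bound of 0.340% (3 counts, the most that a count of 0 is taken to allow, would be 0.266%), and chr11 had 2. Events nearer than 201 bp overlap in the list.

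Pairs at most 200 bp apart numbered 65 on chr09 and 75 on chr11. Their median distance was 120 bp on chr09, 122 bp on chr11 and 123 bp on the other 17 chromosomes. The stronger event of such a pair exceeded the weaker by a median factor of 1.72 on chr09 (quartiles 1.34 and 2.79), 1.75 on chr11 (1.33 and 3.25) and 1.72 on the other 17 (1.31 and 2.56). The medians were thus close in the 3 sets, while the upper quartile of the factor was higher on chr11, and none of these differences was tested.

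Chr11 had more groups of 3 or more events, by a margin within counting error once set against its number of events. When centres up to 1000 bp apart were chained together, chr09 had 17 groups with at least 3 events (exact 95% Poisson interval 9.90 to 27.2) and 31 on chr11 (21.1 to 44.0). Per 100 events these are 1.51 (0.878 to 2.41) on chr09 and 2.14 (1.46 to 3.04) on chr11, where the other 17 chromosomes ran from 0.966 to 2.31. The intervals of chr09 and chr11 overlap. No group on either chromosome exceeded 4 events, a size reached by 2 groups on chr09 and 3 on chr11, while on chr04 the largest held 7.

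The largest groups had different internal patterns. On chr11, the group at chr11:2437066-2438121 was built around 1 strong event of signal 750, flanked at 92 bp and 77 bp by events of 108 and 105, with a weaker one of 29.2 farther on. On chr09, the group at chr09:7004795-7005824 had no dominant member, with signals of 87.2, 35.8, 120 and 183 over 829 bp. A second group of 4 on chr09, at chr09:18995798-18997241, held 38.5, 85.5, 84 and 55. The remaining groups of 4 on chr11 each led with their first event, of signal 243 at chr11:8312444-8313763 and of 119 at chr11:6688550-6689893, followed by events of 31.8 to 47.1. The third group named on chr09, at chr09:9808252-9809102, held 3 events of 459, 74.6 and 32.5.

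The second main comparison was of signal, the value of unstated scaling that the authors' peak caller gave each event. Signal did not differ detectably between the chromosomes although their densities did. The median was 47.9 on chr09 (quartiles 34.5 and 76.2) and 48.5 on chr11 (34.5 and 78), within the 46.9 to 52 of the other 17 medians. The mean log2 signal over events was 5.77 ± 0.90 on chr09 and 5.80 ± 0.90 on chr11 (SD over events, n = 1128 and 1446). Spread over single events was therefore far wider than the difference between the means.

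A linear fit of the mean log2 signal per window, over 443 windows with at least 5 events, gave a ratio of chr09 to chr11 of 0.982 (95% interval 0.922 to 1.05, n = 22 and 20 windows, adjusted p = 0.849 over all pairs). Chr09 had 0.974 times the mean of the other 18 chromosomes (0.928 to 1.02, n = 22 windows, adjusted p = 0.512) and chr11 0.994 times (0.953 to 1.04, adjusted p = 0.861). The interval of the chr09 to chr11 ratio leaves out geometric mean signals on chr09 below 0.922 or above 1.05 times those on chr11. In this fit 5.26% of the 19 chromosomes passed, which is chr08 alone, and 1.17% of the pairs passed, with chr09 or chr11 in none of them. At an unadjusted p under 0.05, chr09 differed in 1 of its 18 pairs and chr11 in 1, both with chr08, which had the higher signal. The ratio of chr09 to chr08 was 0.916 (n = 22 windows each, adjusted p = 0.117) and that of chr11 to chr08 was 0.933 (adjusted p = 0.233).

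**Figure D4:**
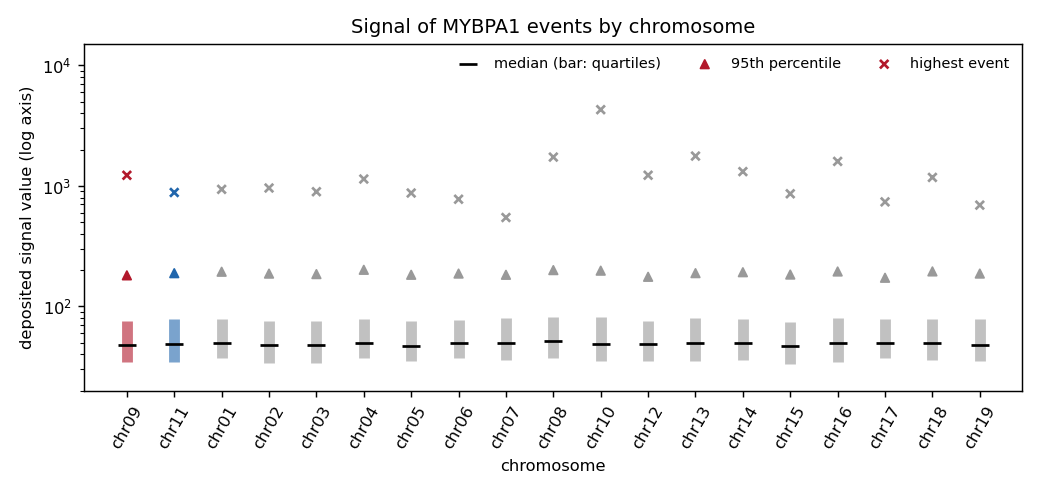
Deposited signal value per chromosome on a log axis, with medians (black dashes), quartiles (thick bars), 95th percentiles (triangles) and the highest event (crosses) for chr09 (red), chr11 (blue) and the other 17 (grey). The medians of chr09 (47.9) and chr11 (48.5) sit among the rest, whose medians run from 46.9 to 52.

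Other measures of the signal distribution were close as well. The 95th percentile was 181 on chr09 and 189 on chr11, with 173 to 201 on the other 17. Events of signal 150 or more made up 7.54% of chr09 (95% Wilson interval 6.14 to 9.22%) and 8.44% of chr11 (7.11 to 9.98%). Events under 30, near the lower end of the list, made up 14.2% of chr09 (12.3 to 16.3%) and 13.1% of chr11 (11.4 to 14.9%). The strongest 10% of events carried 32.5% of the summed signal on chr09 and 32.0% on chr11. With like signal per event, the summed signal per Mb followed the density: 3429 on chr09, the lowest of 19, and 5103 on chr11, the 6th highest. The share of events with a −log10 q of at least 5 was 57.7% on chr09 and 58.3% on chr11.

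Each chromosome held 10 events of the top 1% of the list, which here means a signal of 391 or more. They made up 0.887% of the chr09 events (95% Wilson interval 0.482 to 1.62%) and 0.692% of the chr11 events (0.376 to 1.27%), against 0.915% over the numbered chromosomes. On chr09 and chr11 these are also the 10 strongest events.

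The strongest event of chr09 lay at chr09:16881708-16881908, with signal 1223, rank 12 in the list and 24.9 times the median of the list. Its p was too small for the list to record. A second event 53 bp away had 339. The next on chr09 was chr09:6655661-6655861 of signal 890 and −log10 p 227, whose nearest neighbour was 6511 bp off and weak (signal 29). The remaining 8 were much closer together in strength, between 394 and 467. They were chr09:2589504-2589704 with 467, chr09:12486131-12486331 with 463, chr09:9808252-9808452 with 459, chr09:19233058-19233258 with 440, chr09:7039044-7039244 with 421, chr09:11124604-11124804 with 414, chr09:18935972-18936172 with 408 and chr09:19618304-19618504 with 394. The event at chr09:11124604-11124804 borders the event-free stretch of 589 kb that starts at its centre, 11124704, so a strong event stood at the edge of an empty region.

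Chr11 lacked an event above 1000 but had 3 well above its others. These were chr11:5366437-5366637 of signal 880.5 and −log10 p 239, chr11:17118271-17118471 with 868 and 235, and chr11:2437158-2437358 with 750 and 204. The fourth, chr11:143114-143314, had 528 and lay in the first 0.484% of the span. Those that followed were chr11:7056294-7056494 with 478, chr11:4965019-4965219 with 448, chr11:19116235-19116435 with 446, chr11:3885744-3885944 with 444, chr11:10752191-10752391 with 409 and chr11:19118470-19118670 with 405. The events of 446 and 405 were neighbours, 2235 bp apart near the high-coordinate end.

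The strongest events of chr09 stood alone more often than those of chr11, in numbers too small to separate. Of the 10 on chr09, 3 had another event within 1000 bp (30%, 95% Wilson interval 10.8 to 60.3%), and of the 10 on chr11, 8 had one (80%, 49.0 to 94.3%). Among the top 1% events of the other 17 chromosomes the share was 47.8% (121 of 253). The intervals of chr09 and chr11 overlap, and the difference was not tested. At a signal of at least 150 the shares were 35.3% of 85 events on chr09 (26.0 to 45.9%), 42.6% of 122 on chr11 (34.2 to 51.5%) and 40.2% of 2225 on the other 17.

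Signal also varied with the distance to the nearest event, with the highest medians at the shortest distances and the lowest at the longest on both chromosomes. Events with a neighbour within 200 bp had a median signal of 57.6 on chr09 (129 events), 67.5 on chr11 (145) and 63.5 on the other 17 (2889). Events more than 20 kb from any other had a median of 38 on chr09 (87 events), 38 on chr11 (70) and 43.3 on the other 17 (1514). Such isolated events made up 7.71% of chr09 and 4.84% of chr11. Between 1000 and 5000 bp the median was 49 in all 3 sets. These medians are descriptions, and events of neighbouring positions are not independent.

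Within chr11, windows with more events tended to have stronger events, and on chr09 the correlation was low. Over the 20 windows of chr11 the event count and the mean log2 signal had a Pearson r of 0.612 and a Spearman rho of 0.558. Over the 22 windows of chr09 r was 0.189 and rho 0.129. On the other 17 chromosomes rho ran from 0.130 to 0.906 with a median of 0.386, so chr11 ranked 5th highest of 19 and chr09 lowest, just under chr04. By r chr11 was again 5th highest, while chr09 was 3rd lowest. Without the 2 windows farthest from the median count, r was 0.0186 and rho -0.119 on chr09, and r was 0.542 and rho 0.496 on chr11. The difference between the chromosomes was not tested, and windows of 1 chromosome share the same libraries and adjoin each other. The poorest windows of chr09 had both low and high signals, and a window of 10 events has an uncertain mean.

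**Figure D5:**
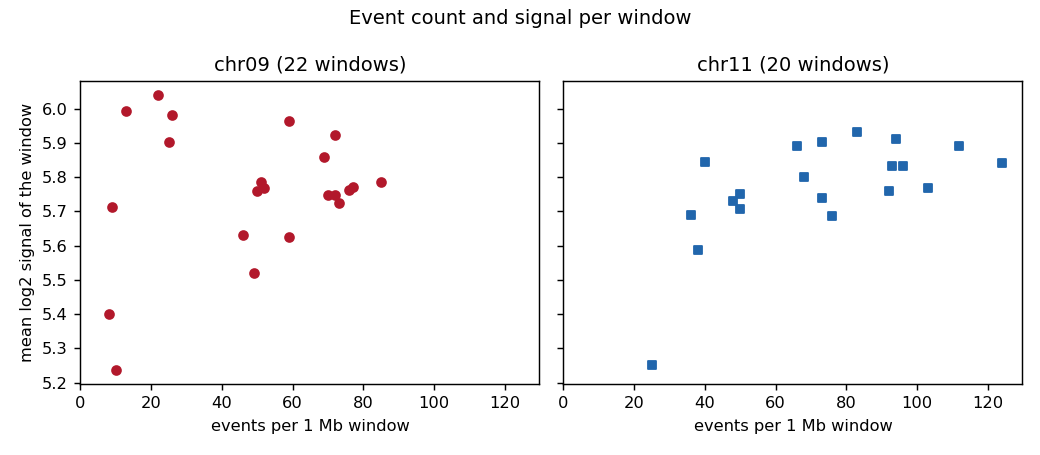
Mean log2 signal (vertical axis, which does not start at 0) against the number of events (horizontal axis) in windows of 1 Mb on chr09 (left, 22 windows) and chr11 (right, 20 windows). The points of chr11 rise with the count (r = 0.612), while those of chr09 scatter (r = 0.189), most widely among its poorest windows.

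Neither chromosome held a strong event with a very weak p. Among events of signal at least 150, −log10 p had a median of 48.7 on chr09, 46.7 on chr11 and 47.9 on the other 17. Its lowest value was 24.8 on chr09 and 21.9 on chr11, against 7.73 on the other 17. On chr09 the 3 lowest belonged to chr09:659358-659558 (24.8, signal 150), chr09:3972253-3972453 (26.0, signal 155) and chr09:1249846-1250046 (26.5, signal 157). On chr11 they belonged to chr11:3580275-3580475 (21.9, signal 154), chr11:1979081-1979281 (24.9, signal 167) and chr11:3431327-3431527 (26.3, signal 156). All 6 had signals between 150 and 167. Sets of 85 and 122 events reach less far into the extremes than a set of 2225.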

How the data were processed

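Reads passed through fastp 0.21.0 and Bowtie2 2.0, per the submitters' processing notes. The deposited list, in narrowPeak layout, is named for GEM. The sources used here do not give the caller's settings, the genome build, the control or how libraries were pooled. The signal value, −log10 p and −log10 q of each event are the authors', as deposited with decimal commas, and q ends at 0.01. The deposited display score was not used.

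Events were located by their centre. Full 1 Mb windows were counted from each chromosome's first event, which left out 61 events at the ends of chr09 and chr11. Fits (quasi-Poisson for counts, quasi-binomial for neighbours, event-weighted linear for log2 signal) took all 19 chromosomes, with Benjamini-Hochberg adjustment over the 19 chromosomes or over all their pairs. They treat windows as independent. The fits were also run on simulated windows, which were drawn independently and so cannot check that assumption. The depth is unknown, since no library totals were used. Alternatives concerned the events used, the windows and the neighbour distance. Regions named are, per chromosome, the 10 strongest events, 3 largest groups, 3 richest and 3 poorest windows, 3 longest gaps and, at signal 150 or more, the 3 events of lowest −log10 p, plus those marked in the text. The members and measures were chosen with earlier results of these data known. A planned search for sequence motifs at the events was not run, since it needs a genome of this build. Software was Python 3.11.15 with scipy 1.17.1, pandas 2.3.3, numpy 2.4.6 and matplotlib 3.10.9.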

Additional observations from a re-analysis of the deposited data

How the results depend on the processing

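All density, close-neighbour and signal values printed here are log2 ratios. The lower density of chr09 kept its direction in all 7 alternatives, between -0.49 and -0.38 against the other 18 chromosomes and between -0.59 and -0.54 against chr11. Against chr11 it no longer passed among the stronger 50% of events (-0.59), at a −log10 q of at least 5 (-0.57) and with windows of 2 Mb (-0.56). Against the other 18 it no longer passed with windows of 2 Mb (-0.42) and without the middle 33.3% of each span (-0.38). The values moved little in these alternatives. The stronger events, those chosen by q and the spans without their middle give fewer events, whereas windows of 2 Mb count nearly the same ones. Against the other 18, the standard error of chr09 rose with window size, from 0.117 at 500 kb to 0.145 at 1 Mb and 0.183 at 2 Mb. The adjusted p of the quasi-Poisson fit rose with it, from 0.0018 to 0.036 and 0.224. The call thus depends on the window size. Independent windows would leave the standard error about the same at each size, since nearly the same events are counted. The fits treat adjoining windows as independent, which the rise does not bear out, so the p-values at 500 kb and 1 Mb may be too small. How far adjoining windows vary together was not tested. The share of close neighbours and the signal passed nowhere, and 9 of their values changed sign. Among the stronger 50% of events the close-neighbour value was -0.0061 for chr09 and -0.027 for chr11 against the other 18, and the signal value was 0.0086 and 0.023. At a −log10 q of at least 5 the signal of chr11 gave 0.0036. Without that middle part, chr09 against chr11 gave -0.048 for close neighbours. At a neighbour distance of 500 bp chr11 against the other 18 gave -0.070. At 5000 bp chr09 gave -0.052 against the other 18 and -0.168 against chr11. Counting windows from position 1 was added after the data were seen and changed no call. For the mean −log10 q per window, event values above 300 were set to 300, and this alternative gave differences in −log10 q. No paired analysis was possible because libraries have no values of their own here, and leaving out a replicate was not run for that reason. Library depth is unknown, and whether weaker sites are missing from the list was not tested.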
